A study of Oryza sativa with 8 samples.

Results

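The effect of 1 h of shade on the first leaf of wild type rice seedlings (cultivar Nipponbare) was taken from 4 RNA-seq libraries of the 8 in the series. Of these, 2 libraries were of first leaves, 3 days old, after 1 h of shade, and 2 were of first leaves of the same age after 1 h of white light. The shade lamps gave 48 µE of far-red, 16 µE of red and 1.3 µE of blue light on each square metre every second. All seedlings came from seed held in water at 37 °C for 24 h and were raised at 28 °C in continuous white light. A locus was included when its mean over the 4 libraries was at least 1 FPKM (fragments per kilobase of transcript, scaled by the library's mapped fragments), which left 20650 of the 55801 loci in the deposited table. The locus just inside this limit, LOC_Os02g25620, was at 0.925 and 0.226 FPKM in shade, against 1.47 and 1.38 FPKM in white light. The locus just outside it, the peroxidase LOC_Os07g06380, was at 0.989 and 1.67 FPKM in shade, against 0.328 and 1.01 FPKM in white light. The other 4 libraries, coleoptiles at 2 days of age under the same light treatments, were used only to compare the response between tissues. Whether replicates were separate cultures is not said in the labels, and the p-values therefore reflect only how far these samples spread, which may be technical. The RNA is that of whole first leaves, in which fewer cells of a type and less RNA per cell cannot be told apart.

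Plants read shade from the balance of red and far-red light, which sets how much phytochrome is active, and from blue light through cryptochromes. Active phytochrome holds back the growth-promoting phytochrome-interacting factors, and it favours genes of chloroplast build-up. Early light-induced proteins are relatives of the chlorophyll a/b-binding antenna proteins that accumulate in thylakoid membranes when light exceeds what can be used, and small heat shock proteins and DnaK chaperones hold or refold proteins under stress.

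The 4 libraries were much alike in scale. FPKM summed to 719696 and 739390 in shade, against 725024 and 723480 in white light. The smallest step seen among low FPKM values, the worth of a single fragment, put the depth of shade replicate 2 at 0.820 times that of shade replicate 1, against 0.700 and 0.603 times for the white light libraries. That estimate rests on the 18.6% to 25.1% of low loci that sat at the step. Depth thus moved with light, and its part in the results below was not tested. Replicates correlated across loci at r = 0.973 in shade and r = 0.975 in white light, and libraries of different light at r = 0.959 to 0.970. Replicates lay over 2-fold apart at 572 loci in shade and at 507 loci in white light. Summed markers of leaf cells (chlorophyll-binding, photosystem, carbonic anhydrase and Rubisco small subunit loci) took 6.32% and 7.30% of all FPKM in shade, against 7.93% and 7.41% in white light. Glutelin and prolamin loci, which define seed tissue, summed to 1.94 and 2.12 FPKM in shade, against 2.61 and 2.35 FPKM in white light, and 1 of 43 passed the filter. A wider seed list, with cupin, late embryogenesis and seed storage annotations, summed to 15186 and 13584 FPKM in shade, against 11939 and 14894 FPKM in white light, and overlapped. Of its 117 loci tested, 29.1% were higher and 16.2% lower without overlap, where 21.5% and 18.3% of all loci were.

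After 1 h of shade, 7 loci fell and 0 rose by limma at a Benjamini-Hochberg adjusted p under 0.05, which are 0.0339% and 0% of the loci tested. The 7 were a pair of early light-induced protein genes, a small heat shock protein, a DnaK chaperone, a MYB transcription factor, a chitinase and a member of a plant-specific family with no named function. Without a multiple-test adjustment, 1163 loci were higher (5.63%) and 887 lower (4.3%) at p under 0.05, where 1032.5 would pass by chance in both directions. With 1 library left out, a group held 1 library and the spread came from the other group alone. The number of calls then went up or down, and why was not tested. Over all alternatives the log2 change of LOC_Os03g16860 lay between -2.60 and -2.41, and that of LOC_Os06g14240 between -4.77 and -2.76. The 7 calls ended when all loci were tested with no filter or when the filter used the mean of all 8 libraries. They also ended when the spread was shared with the coleoptile libraries.

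With 2 libraries a group, an exact permutation test of any single locus cannot go below p = 0.333, so loci were also described by a size rule without a test. A locus was counted as separated when both shade libraries lay on the same side of both white light libraries and the nearest libraries were at least 1 unit apart on log2(FPKM + 1), a 2-fold difference on that scale. By this rule 41 loci were higher in shade (0.199% of loci tested) and 89 were lower (0.431%). The median log2 change was 1.61 for the 41 and -1.67 for the 89, against 0.01 for all loci tested, of which 90% lay between -0.58 and 0.56. The loci lower in shade were more often annotated, 73 of 89, against 23 of the 41 higher ones. They also had a higher median level of 9.29 FPKM, against 5.02 FPKM for the higher ones, and 11 of them exceeded 100 FPKM in some library, against 2 of the higher ones. Of the 41 higher loci, 8 were listed at 0 in both white light libraries.

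Early light-induced protein genes had the lowest median of the gene lists drawn up for these libraries. Of 6 loci with this annotation 3 passed the filter, all 3 were separated and lower in shade, and 2 fell. LOC_Os07g08160 was at 12.3 and 9.81 FPKM in shade, against 219 and 137 FPKM in white light, which is 16.1-fold lower on the means (log2 change -3.86 ± 0.26 SE, limma adjusted p = 0.0247). Its neighbour in the table LOC_Os07g08150 was at 18.6 and 16.1 FPKM in shade, against 132 and 109 FPKM in white light (6.96-fold lower, log2 change -2.73 ± 0.18, limma adjusted p = 0.0247). The third, LOC_Os01g14410, was at 31.3 and 27.0 FPKM in shade, against 311 and 179 FPKM in white light, and did not pass (log2 change -2.98 ± 0.28, limma adjusted p = 0.0616). In each of the 3 the white light libraries differed more between themselves than the shade libraries did, and no shade library came near a white light library. Summed over the 6 loci, early light-induced transcripts were at 64.2 and 54.3 FPKM in shade, against 663.5 and 425.8 FPKM in white light. The remaining 3 loci stayed under the filter, the highest of them LOC_Os05g08110 at 1.51 and 0.924 FPKM in shade, against 0.890 and 0.114 FPKM in white light. Since neighbouring copies of a family can share reads, how the level divides between LOC_Os07g08150 and LOC_Os07g08160 is uncertain.

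**Figure D1:**
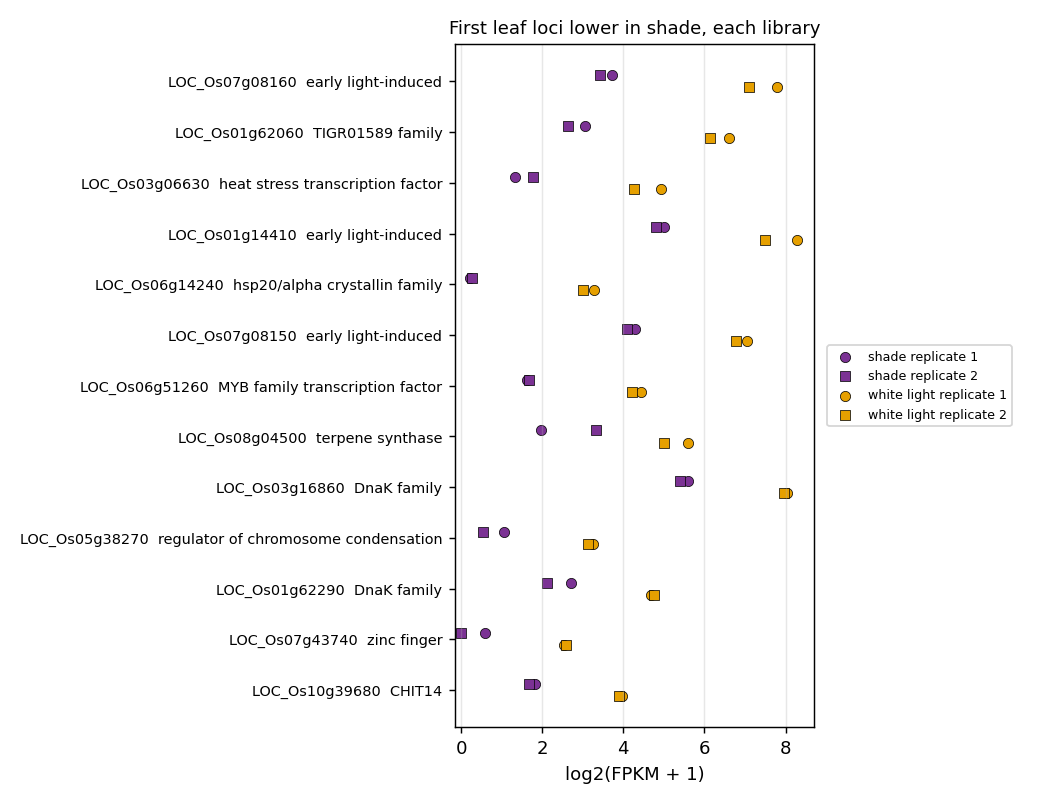
Level of each first leaf library, as log2(FPKM + 1), at the annotated loci with the lowest log2 changes among separated loci and at the 7 that fell; purple points are shade replicates and orange points white light replicates. At every locus drawn both purple points lie left of both orange points, as for LOC_Os07g08160 with 12.3 and 9.81 FPKM in shade and 219 and 137 FPKM in white light.

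Chlorophyll a/b-binding antenna proteins, the light-harvesting relatives of this family, were mostly lower, and by a smaller amount. All 17 loci with this annotation passed the filter, and 13 of them were lower in both shade libraries than in both white light libraries, which is 76.5% against 18.3% of all loci tested. Their median log2 change was -0.41, 0 were separated and 0 passed limma's adjusted test, with 5 lower and 2 higher at an unadjusted p under 0.05. The wider list of light harvesting, photosystem, Rubisco small subunit and carbonic anhydrase genes, which includes these 17, had 52 loci tested and a median of 0.01. Its other 35 loci had a median of 0.11, with 5 lower (14.3%, against 18.3% of all loci) and 12 higher (34.3%, against 21.5%) without overlap. LOC_Os02g10390 was at 563 and 636 FPKM in shade, against 1267 and 1116 FPKM in white light (log2 change -0.99 ± 0.21, limma adjusted p = 0.234). The summed level of the 17 was 25646 and 28402 FPKM in shade, against 35181 and 31436 FPKM in white light. The median stayed negative without any 1 library, between -0.51 and -0.28.

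The family was not uniform: 2 members were higher in both shade libraries. LOC_Os01g52240 was at 4693 and 5755 FPKM in shade, against 3508 and 2741 FPKM in white light (log2 change 0.74 ± 0.30, limma adjusted p = 0.496), and was the most abundant of the 17 in shade but not in white light. LOC_Os09g26810 was at 129 and 140 FPKM in shade, against 83.0 and 83.9 FPKM in white light (log2 change 0.68 ± 0.16, limma adjusted p = 0.263). Antenna proteins have closely similar copies, so values of single copies are uncertain. The 4 Rubisco small subunit loci, which encode part of the carbon-fixing enzyme, summed to 9952 and 14000 FPKM in shade, against 10821 and 11566 FPKM in white light, and the groups overlapped.

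**Figure D2:**
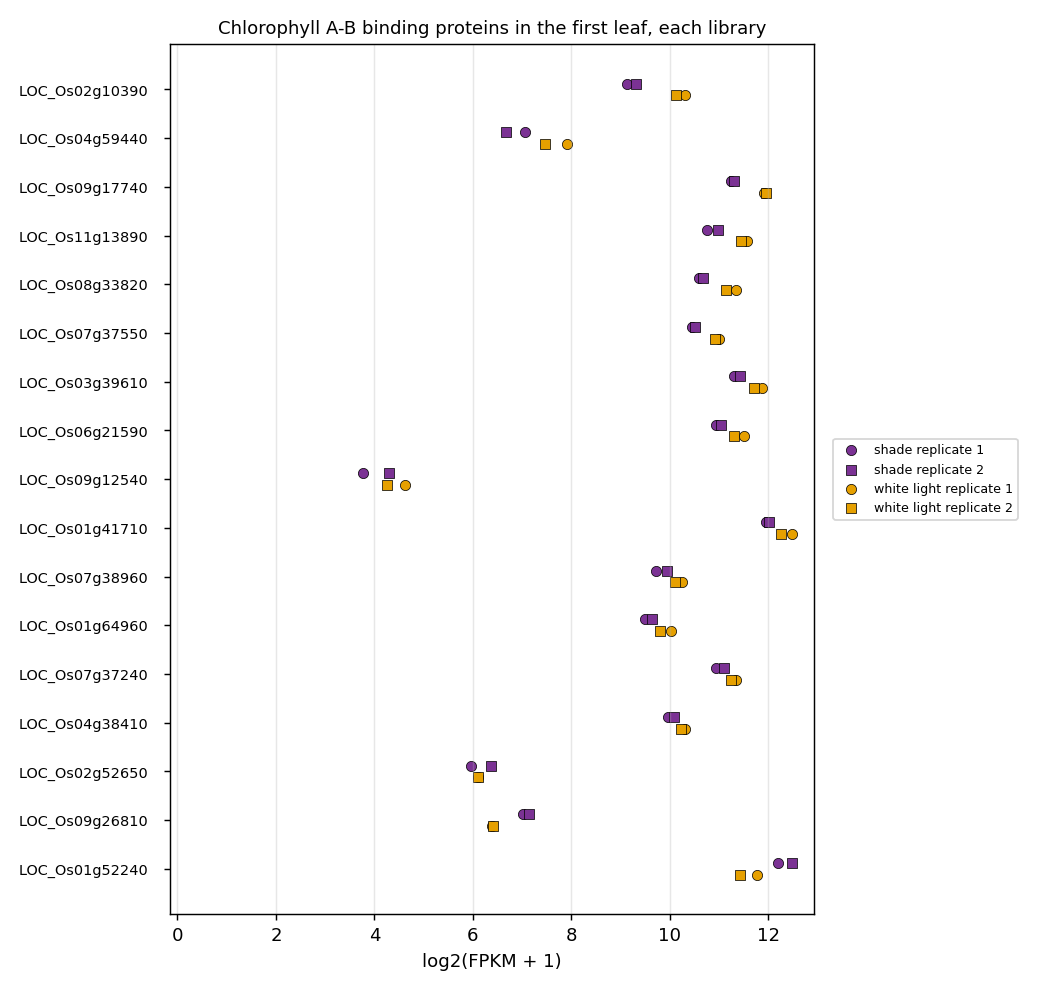
Level of each first leaf library, as log2(FPKM + 1), at the 17 loci annotated as chlorophyll A-B binding protein, ordered by log2 change from the lowest at the top; purple points are shade replicates and orange points white light replicates. At 13 loci both shade points lie left of both white light points, and at LOC_Os09g26810 and LOC_Os01g52240 they lie right of them.

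In the list of chlorophyll and carotenoid synthesis genes 1 of 14 was separated. Chlorophyllide a oxygenase LOC_Os10g41780, which makes the chlorophyll b that antenna proteins bind, was at 39.95 and 47.2 FPKM in shade, against 114 and 101 FPKM in white light (log2 change -1.29 ± 0.17, limma adjusted p = 0.113). A starch synthase, LOC_Os07g22930, was at 24.3 and 22.7 FPKM in shade, against 88.2 and 56.1 FPKM in white light (log2 change -1.54 ± 0.24, limma adjusted p = 0.145). Both groups of libraries were apart at these loci, with no value of shade above 47.2 FPKM.

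Heat-response genes made up 17 of the 89 loci that were separated and lower in shade. Small heat shock proteins, heat stress transcription factors and the DnaK, DnaJ and other chaperones together held 177 loci tested, counting each once. Of these, 17 were separated and lower in shade (9.6%, against 0.431% of all loci), 0 were separated and higher, and 2 fell by limma's test. The list medians were nearer to 0, at -0.02 for small heat shock proteins, -0.31 for heat stress transcription factors and -0.14 for chaperones.

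Among the small heat shock proteins, LOC_Os06g14240 was at 0.174 and 0.213 FPKM in shade, against 8.78 and 7.08 FPKM in white light, and it fell (log2 change -2.90 ± 0.21, limma adjusted p = 0.0351). A further 3 of the 22 tested were separated and lower. Of these, the mitochondrial LOC_Os02g52150 was at 1.46 and 1.03 FPKM in shade, against 6.87 and 5.87 FPKM in white light, and LOC_Os03g16020 at 0.979 and 0.961 FPKM in shade, against 4.89 and 4.89 FPKM in white light. The separated small heat shock proteins thus all had low levels. The most abundant one, LOC_Os01g04350, was at 355 and 394 FPKM in shade, against 377 and 382 FPKM in white light, so its groups overlapped. It is named here after its values were seen.

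Heat stress transcription factors, which switch on heat shock genes, had 4 of 22 separated and lower, and 12 lower without overlap (54.5%, against 18.3% of all loci). LOC_Os03g06630 was at 1.498 and 2.42 FPKM in shade, against 29.3 and 18.2 FPKM in white light, a 12.1-fold difference that did not pass (log2 change -3.05 ± 0.28, limma adjusted p = 0.0616). LOC_Os10g28340 was at 3.62 and 4.13 FPKM in shade, against 15.9 and 14.2 FPKM in white light (log2 change -1.72 ± 0.17, limma adjusted p = 0.0616). LOC_Os08g43334 was listed at 0 and was at 0.228 FPKM in shade, against 3.63 and 5.14 FPKM in white light. Just outside the size rule, LOC_Os02g32590 was at 6.77 and 6.93 FPKM in shade, against 20.3 and 14.7 FPKM in white light, with its nearest libraries 0.99 apart.

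Chaperones had 9 of 133 separated and lower. The DnaK family member LOC_Os03g16860 had the highest white light level of the 7 loci that fell, with 47.2 and 41.4 FPKM in shade, against 263 and 249 FPKM in white light (5.78-fold lower, log2 change -2.51 ± 0.17, limma adjusted p = 0.0247). A second DnaK gene, LOC_Os01g62290, was at 5.50 and 3.33 FPKM in shade, against 24.7 and 26.1 FPKM in white light (log2 change -2.31 ± 0.23, limma adjusted p = 0.0616). The heat shock protein LOC_Os08g39140 was at 46.3 and 30.3 FPKM in shade, against 153 and 160 FPKM in white light (log2 change -2.03 ± 0.23, limma adjusted p = 0.0706). In all 3, the white light replicates were closer to each other than either was to a shade library.

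Transcription factors outside the heat group were few among the lower loci. The MYB family member LOC_Os06g51260 was at 2.11 and 2.22 FPKM in shade, against 20.8 and 17.7 FPKM in white light, and it fell (8.89-fold lower, log2 change -2.67 ± 0.18, limma adjusted p = 0.0247). It was the only one of 164 MYB genes that was separated (0.61%, where 0.431% of all loci were separated and lower). LOC_Os01g62060, annotated only as a plant-specific TIGR01589 family protein, was at 7.29 and 5.25 FPKM in shade, against 96.7 and 69.2 FPKM in white light, and it fell (13.2-fold lower, log2 change -3.52 ± 0.23, limma adjusted p = 0.0247). Of 34 B-box and CCT motif genes, a group of regulators of light response and flowering, LOC_Os08g15050 and LOC_Os10g41100 were separated and lower, while 12 were lower (35.3%, against 18.3% of all loci) and 10 higher (29.4%, against 21.5%) without overlap. LOC_Os08g15050 was at 0.229 and 0.669 FPKM in shade, against 5.56 and 3.94 FPKM in white light, and LOC_Os10g41100 at 1.92 and 2.65 FPKM in shade, against 10.3 and 8.30 FPKM in white light.

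Some loci annotated as defence-type proteins were also among the lower loci, and lists of them were made after the values were seen. Of 11 chitinases, which cut the chitin of fungal walls, 4 were separated and lower (36.4%, against 0.431% of all loci) and 1 fell, where 0.0339% of all loci did. As the list was made for these values, nothing is read from its share. The one that fell, LOC_Os10g39680, was at 2.56 and 2.20 FPKM in shade, against 14.6 and 13.8 FPKM in white light (5.97-fold lower, log2 change -2.17 ± 0.17, limma adjusted p = 0.0489). LOC_Os04g41620 was at 12.9 and 12.3 FPKM in shade, against 43.8 and 48.4 FPKM in white light (log2 change -1.79 ± 0.15, limma adjusted p = 0.0606). The 2 most abundant chitinases, LOC_Os09g32080 and LOC_Os08g41100, differed little: the first was at 171 and 171 FPKM in shade, against 154 and 163 FPKM in white light. Of 22 thaumatins 3 were separated and lower (13.6%), as were 3 of 14 hevein, Bet v I, wound-induced and other pathogenesis-related loci (21.4%). Nothing is read from these shares either, and both sums overlapped between the groups. Thaumatins summed to 286 and 211 FPKM in shade, against 250 and 285 FPKM in white light. The hevein and pathogenesis-related list summed to 1257 and 946 FPKM in shade, against 1144 and 1271 FPKM in white light. The wound-induced protein LOC_Os11g37970 was at 24.8 and 29.2 FPKM in shade, against 84.9 and 90.05 FPKM in white light (log2 change -1.66 ± 0.16, limma adjusted p = 0.0616). Not all defence-type loci were lower. The defensin LOC_Os06g22919 was separated and higher, at 4.76 and 5.85 FPKM in shade, against 0.648 and 0.42 FPKM in white light. WRKY30 (LOC_Os08g38990) was too, at 10.5 and 11.8 FPKM in shade, against 4.69 and 3.32 FPKM in white light. Of 68 WRKY genes, 22 were higher (32.4%, against 21.5% of all loci) and 8 lower (11.8%, against 18.3%) without overlap. Loci used as markers of wounded or stressed tissue (ZIM domain, lipoxygenase and WRKY) summed to 1570 and 2225 FPKM in shade, against 1982 and 1478 FPKM in white light, and overlapped between the groups.

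The annotated loci that were higher in shade did not fall into one large family, and none passed the test. Universal stress proteins, small proteins with a nucleotide-binding fold that are induced by many stresses, had 3 of 21 separated and higher, where 0.199% of all loci were, with a list median of 0.03. LOC_Os01g19820 had the highest log2 change of the annotated loci, at 48.1 and 40.1 FPKM in shade, against 10.5 and 6.35 FPKM in white light (log2 change 2.29 ± 0.25, limma adjusted p = 0.0706). LOC_Os05g28740 was at 78.4 and 84.2 FPKM in shade, against 15.1 and 24.6 FPKM in white light (log2 change 2.02 ± 0.25, limma adjusted p = 0.0908). LOC_Os03g19270 was at 11.5 and 9.98 FPKM in shade, against 2.43 and 3.51 FPKM in white light (log2 change 1.58 ± 0.21, limma adjusted p = 0.113). In this family the remaining 18 loci lay on both sides of 0.

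The AP2 domain transcription factor LOC_Os03g08460 was at 39.1 and 37.9 FPKM in shade, against 9.54 and 7.44 FPKM in white light (log2 change 2.07 ± 0.18, limma adjusted p = 0.0606). Asparagine synthetase LOC_Os03g18130, which moves nitrogen into the transport amino acid asparagine, was at 14.5 and 17.5 FPKM in shade, against 2.31 and 5.24 FPKM in white light (log2 change 1.90 ± 0.32, limma adjusted p = 0.166). The aldehyde dehydrogenase LOC_Os02g49720, of a family of enzymes that oxidise aldehydes to acids, was at 34.1 and 30.6 FPKM in shade, against 8.93 and 7.08 FPKM in white light (log2 change 1.89 ± 0.18, limma adjusted p = 0.0616). Shade libraries agreed closely at these loci and lay well above white light, at moderate levels. The stem-specific protein TSJT1 locus LOC_Os04g58280 was at 51.7 and 46.3 FPKM in shade, against 12.3 and 14.4 FPKM in white light (log2 change 1.80 ± 0.17, limma adjusted p = 0.0616).

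The 2 separated loci above 100 FPKM that were higher in shade were LOC_Os11g44810 and LOC_Os01g65690, named here for that count after their values were seen. LOC_Os11g44810, annotated as an auxin-repressed protein, was at 548 and 656 FPKM in shade, against 234 and 207 FPKM in white light (log2 change 1.44 ± 0.20, limma adjusted p = 0.117). LOC_Os01g65690, annotated as a DOPA dioxygenase, was at 776 and 798 FPKM in shade, against 334 and 371 FPKM in white light (log2 change 1.16 ± 0.19, limma adjusted p = 0.163). At the low end, the cytochrome P450 LOC_Os07g04410, annotated as a family of brassinosteroid synthesis, had 3.36 and 2.83 FPKM in the shade libraries, while the white light libraries list it at 0. LOC_Os07g37290, an expressed protein with no named function, was the only locus at 3 FPKM or more in both libraries of one light and listed at 0 in both of the other, with 3.51 and 4.45 FPKM in shade.

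**Figure D3:**
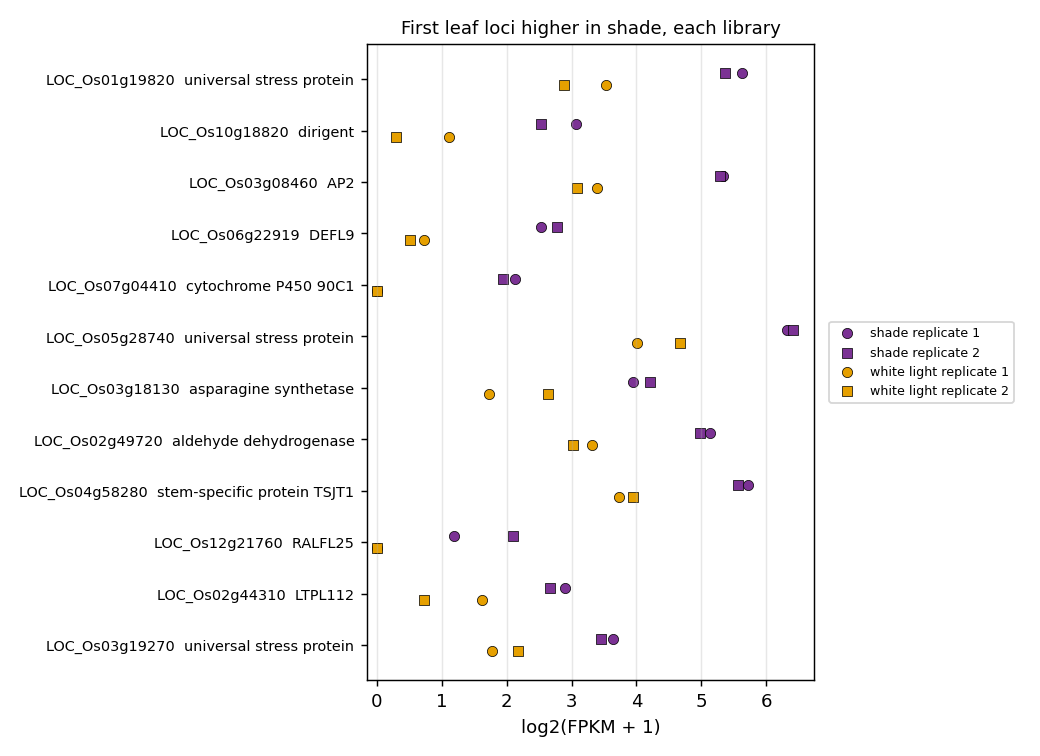
Level of each first leaf library, as log2(FPKM + 1), at the 12 annotated loci with the highest log2 changes among separated loci; purple points are shade replicates and orange points white light replicates. Both purple points lie right of both orange points in each row, and 0 of these loci passed limma's test.

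The light receptors and their direct partners differed less. Of the 3 phytochromes, 3 cryptochrome-type loci, 5 phytochrome-interacting factor-like loci and 11 clock loci, 0 passed limma's adjusted test and 0 were separated. At an unadjusted p under 0.05 there were 1 higher and 1 lower among the receptors, 1 lower among the interacting factors and 3 lower among the clock loci, where 5.63% of all loci were higher and 4.3% lower. Phytochrome B LOC_Os03g19590, the main sensor of red to far-red balance in light-grown plants, was at 17.0 and 22.04 FPKM in shade, against 11.2 and 15.0 FPKM in white light (log2 change 0.55 ± 0.22, limma adjusted p = 0.492). Phytochrome A LOC_Os03g51030 was at 19.8 and 24.3 FPKM in shade, against 22.2 and 16.0 FPKM in white light, and phytochrome C LOC_Os03g54084 at 17.2 and 21.5 FPKM in shade, against 14.8 and 18.1 FPKM in white light. The groups were apart only for phytochrome B among the 3. LOC_Os02g41550, annotated with the FAD binding domain of DNA photolyase that cryptochromes share, was at 25.5 and 25.4 FPKM in shade, against 45.5 and 39.2 FPKM in white light (log2 change -0.71 ± 0.16, limma adjusted p = 0.255). The other two of this annotation overlapped between the groups.

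Of the 5 phytochrome-interacting factor-like loci, transcription factors with a helix-loop-helix domain, 3 were lower and 1 higher in shade without overlap, where 18.3% and 21.5% of all loci were. LOC_Os03g43810 was at 3.70 and 5.81 FPKM in shade, against 9.18 and 7.70 FPKM in white light (log2 change -0.73 ± 0.24, limma adjusted p = 0.396). LOC_Os03g56950, the locus annotated as phytochrome-interacting factor 4, was at 11.6 and 15.3 FPKM in shade, against 15.9 and 17.9 FPKM in white light. LOC_Os07g05010, the most abundant, was at 37.6 and 43.1 FPKM in shade, against 36.7 and 38.9 FPKM in white light. These loci differed by small amounts, and the groups overlapped at LOC_Os07g05010. Among clock loci, a pair of genes with a response regulator receiver domain came closest to the size rule. LOC_Os07g49460 was at 12.4 and 11.6 FPKM in shade, against 24.5 and 26.3 FPKM in white light (log2 change -1.02 ± 0.15, limma adjusted p = 0.137), and LOC_Os03g17570 at 40.3 and 44.4 FPKM in shade, against 78.1 and 78.9 FPKM in white light (log2 change -0.88 ± 0.15, limma adjusted p = 0.187). GIGANTEA LOC_Os01g08700, a clock output protein, was at 123 and 138 FPKM in shade, against 183 and 191 FPKM in white light.

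Hormone lists differed in sign by small amounts, and 0 of their loci passed limma's adjusted test. The median log2 change was 0.11 for gibberellin metabolism, 0.09 for auxin synthesis and transport, 0.07 for ethylene, 0.04 for brassinosteroid, 0.02 for abscisic acid, 0.0011 for cytokinin and -0.03 for jasmonate genes, against 0.01 for all loci tested. Of the 20 jasmonate genes, 0 were higher and 3 lower without overlap, where 21.5% and 18.3% of all loci were. The auxin-induced lists had the highest medians of these, at 0.26 for Aux/IAA repressors of auxin response, with 13 of 25 higher without overlap (52.0%, against 21.5% of all loci), and 0.22 for SAUR genes, small auxin-induced genes, with 9 of 36 (25.0%, near that background). At an unadjusted p under 0.05, 4 Aux/IAA genes were higher (16.0%, against 5.63% of all loci) and 0 lower, and 8 SAUR genes were higher (22.2%) and 1 lower (2.78%, against 4.3%). These shares were not particular to the auxin-induced lists. At the same limit 23.1% of ethylene genes were higher and 0% lower. For gibberellin metabolism genes it was 19.05% and 6.35%, and for cytokinin genes 16.2% and 10.8%. It was 10% and 3.33% for auxin synthesis and transport, 4% and 12% for brassinosteroid, 1.43% and 1.43% for abscisic acid, and 0% and 5% for jasmonate genes. OsSAUR58 (LOC_Os12g43110) was at 15.8 and 16.0 FPKM in shade, against 7.83 and 5.39 FPKM in white light (log2 change 1.17 ± 0.21, limma adjusted p = 0.187). Gibberellin 20 oxidase 2 LOC_Os01g66100, which makes precursors of active gibberellin, was at 2.55 and 2.65 FPKM in shade, against 0.696 and 0.807 FPKM in white light (log2 change 1.04 ± 0.21, limma adjusted p = 0.220). The gibberellin 2-beta-dioxygenase LOC_Os04g44150, of the enzymes that inactivate gibberellin, was at 1.45 and 1.97 FPKM in shade, against 4.43 and 4.04 FPKM in white light (log2 change -0.96 ± 0.21, limma adjusted p = 0.237). Both groups were apart at these 3 loci. The SAUR median changed sign to -0.10 without shade replicate 1, whereas that of Aux/IAA genes stayed between 0.17 and 0.26 without any 1 library.

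Secreted peroxidases, xyloglucan and cellulose enzymes and UDP-glycosyltransferases were higher in more cases. Of 75 secreted peroxidases, which crosslink wall polymers, 39 were higher without overlap (52.0%, against 21.5%), 5 were lower without overlap (6.67%, against 18.3%), and the median was 0.35. Of 56 xyloglucan and cellulose enzymes 25 were higher and 2 lower without overlap, with a median of 0.19, and of 42 UDP-glycosyltransferases 24 were higher and 4 lower, with a median of 0.26. The peroxidase LOC_Os04g59190 was at 67.1 and 48.4 FPKM in shade, against 29.2 and 25.0 FPKM in white light (log2 change 1.05 ± 0.21, limma adjusted p = 0.220). The glycosyl hydrolase LOC_Os08g13920, of the family that remodels xyloglucan, was at 829.5 and 956 FPKM in shade, against 418 and 534 FPKM in white light (log2 change 0.91 ± 0.22, limma adjusted p = 0.288). Marker sums were also higher in both shade libraries, but root-type markers share loci with these lists, so this is no separate support. Vascular and lignifying cell markers (dirigent, laccase, cellulose synthase and fasciclin loci) summed to 5843 and 5782 FPKM in shade, against 4269 and 5073 FPKM in white light. How many of these markers are also in the enzyme lists above was not counted. Root-type markers, which hold the peroxidases themselves, summed to 8323 and 7621 FPKM in shade, against 6194 and 6832 FPKM in white light. Aquaporins and nitrate transporters, annotations also used as root markers, summed to 4136 and 3417 FPKM in shade, against 3274 and 3599 FPKM in white light, and overlapped. The part of cell make-up in these lists was not tested.

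Expansins, which loosen walls, were divided. The list median was 0.23, and 12 of 31 were higher (38.7%, against 21.5% of all loci) and 3 lower without overlap (9.68%, against 18.3%), but its only separated loci, the neighbouring beta-expansins LOC_Os09g29690 and LOC_Os09g29710, were lower. LOC_Os09g29710 was at 2.92 and 0.945 FPKM in shade, against 7.07 and 6.99 FPKM in white light (log2 change -1.54 ± 0.34, limma adjusted p = 0.253). Of 38 HD-Zip and homeobox genes, the class that holds known shade-response factors in Arabidopsis, 12 were higher (31.6%, against 21.5% of all loci) and 3 lower (7.89%, against 18.3%) without overlap. None of the 38 was separated. The keywords of this list missed LOC_Os03g47022, annotated as homeobox protein rough sheath 1, which was separated and higher. It was at 4.47 and 4.01 FPKM in shade, against 1.01 and 1.43 FPKM in white light (log2 change 1.24 ± 0.21, limma adjusted p = 0.1795). LOC_Os10g41230 was at 19.6 and 28.2 FPKM in shade, against 11.2 and 10.8 FPKM in white light (log2 change 1.03 ± 0.21, limma adjusted p = 0.220), and LOC_Os04g45810 was at 2.46 and 4.87 FPKM in shade, against 10.5 and 12.2 FPKM in white light (log2 change -1.45 ± 0.28, limma adjusted p = 0.214).

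Core histones and cytosolic ribosomal proteins were mostly negative, and here 1 library decided the values. Core histones, which pack newly made DNA, had 41 of 48 negative log2 changes, where 48.9% of all loci tested were negative and 51.1% positive, and a median of -0.54, yet 12 were lower without overlap (25.0%, against 18.3%). Their sum was 6552 and 4304 FPKM in shade, against 7464 and 6384 FPKM in white light. Without shade replicate 2 the histone median was -0.05, and without shade replicate 1 it was -1.02. Cytosolic ribosomal proteins had 112 of 125 negative and a median of -0.24, but 15 were lower without overlap (12%, below the 18.3% of all loci), and their sum was 20374 and 12718 FPKM in shade, against 21041 and 18112 FPKM in white light. Without shade replicate 2 their median was 0.05, and without shade replicate 1 it was -0.60. The 134 cyclins and other cell division genes had a median of -0.10, with 36 lower (26.9%, against 18.3%) and 15 higher (11.2%, against 21.5%) without overlap. Their median was -0.04 without shade replicate 2 and -0.14 without shade replicate 1. The 27 ribosomal proteins of plastid and mitochondrial type did not share the direction, with 14 negative and 13 positive, and with 4 lower and 9 higher without overlap. Shade replicate 2 was the lowest library in the sums of histones and cytosolic ribosomal proteins, and in the markers of the dividing leaf base, which summed to 6159 and 4087 FPKM in shade, against 6817 and 5899 FPKM in white light.

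**Figure D4:**
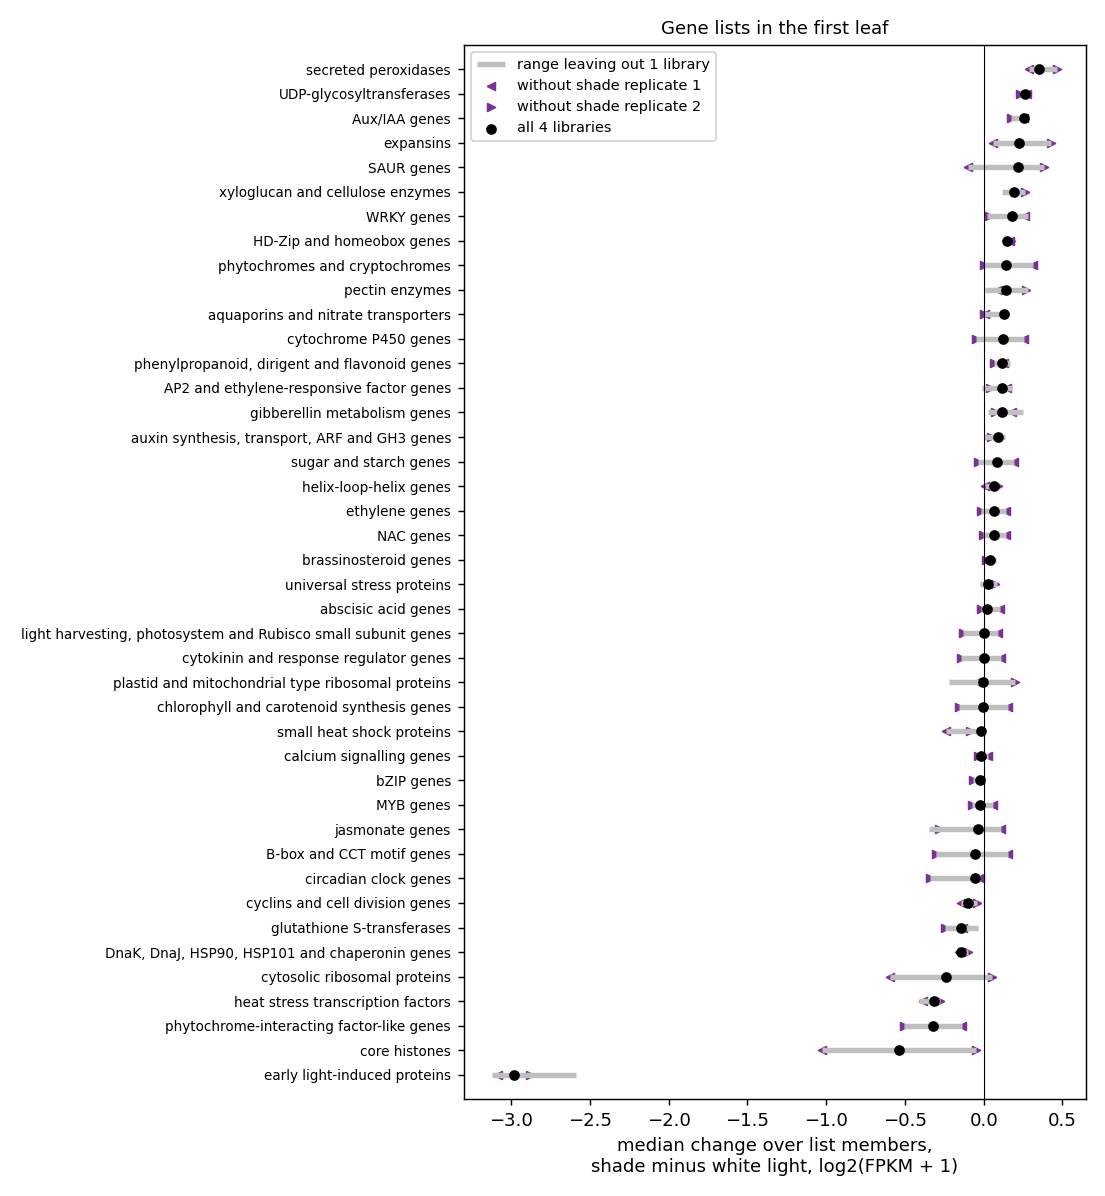
Median log2 change, shade minus white light, over the tested members of each gene list in the first leaf; black points use all 4 libraries, grey bars span the medians with 1 library left out, and purple triangles mark those without shade replicate 1 (pointing left) or shade replicate 2 (pointing right). Early light-induced proteins lie at -2.98, heat stress transcription factors at -0.31 and secreted peroxidases at 0.35, while core histones reach from -1.02 to -0.05 with 1 library left out.

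Finally, the loci separated in the first leaf were set beside their values in the coleoptile, which has its own shade and white light libraries. Coleoptile white light replicates stood apart from each other, at r = 0.924 with 2898 loci over 2-fold apart, against r = 0.984 and 257 loci for coleoptile shade replicates. Of the 89 loci lower in the shaded first leaf, 27 were also lower in the coleoptile without overlap and 3 were higher, where 15% and 17.3% of all loci were. Of the 41 loci higher in the shaded first leaf, 4 were also higher in the coleoptile and 13 were lower. With coleoptile white light replicate 2 as the only white light library, these numbers were 40 and 21 for the loci lower in the leaf, and 5 and 21 for the loci higher in it, where 39.8% of all loci were lower and 37.5% higher. With coleoptile white light replicate 1 as the only one, they were 51 and 15 for the loci lower in the leaf, and 14 and 15 for the loci higher in it, where 36.1% of all loci were lower and 44.7% higher. The balance of the loci higher in the leaf thus rested on coleoptile white light replicate 2. The early light-induced locus LOC_Os07g08160 was at 161 and 80.4 FPKM in shaded coleoptiles, against 277 and 281 FPKM in coleoptiles in white light. The DnaK locus LOC_Os03g16860 was at 150.05 and 116 FPKM in shaded coleoptiles, against 327 and 176 FPKM in white light, so both loci were lower in shade in the coleoptile too.

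The shade response of the first leaf minus that of the coleoptile was tested by limma in all 8 libraries, and 4 of 21014 loci differed (0.019%), with 5.58% at an unadjusted p under 0.05. Of the 4, only the aldehyde dehydrogenase LOC_Os02g49720 was also separated in the first leaf. In coleoptiles it was at 7.69 and 9.19 FPKM in shade, against 16.2 and 17.6 FPKM in white light, the opposite of its first leaf values above (difference of log2 changes 2.82 ± 0.26, limma adjusted p = 0.0480). That call ended without any of the first leaf libraries or either coleoptile shade library, at an adjusted p of 0.189 to 0.586. It also ended with libraries scaled to equal medians (adjusted p = 0.0546), with a pseudocount of 0.1 (0.103) and with a replicate block (0.236). It held without coleoptile white light replicate 1 (adjusted p = 0.0182) or 2 (adjusted p = 0.00442). The difference itself was 2.67 to 3.01 in all of these. The other three are loci near each other on chromosome 10, LOC_Os10g31530, LOC_Os10g31670 and LOC_Os10g31680, which were at most 0.186 FPKM in any first leaf library, so their difference lay in the coleoptile.

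**Figure D5:**
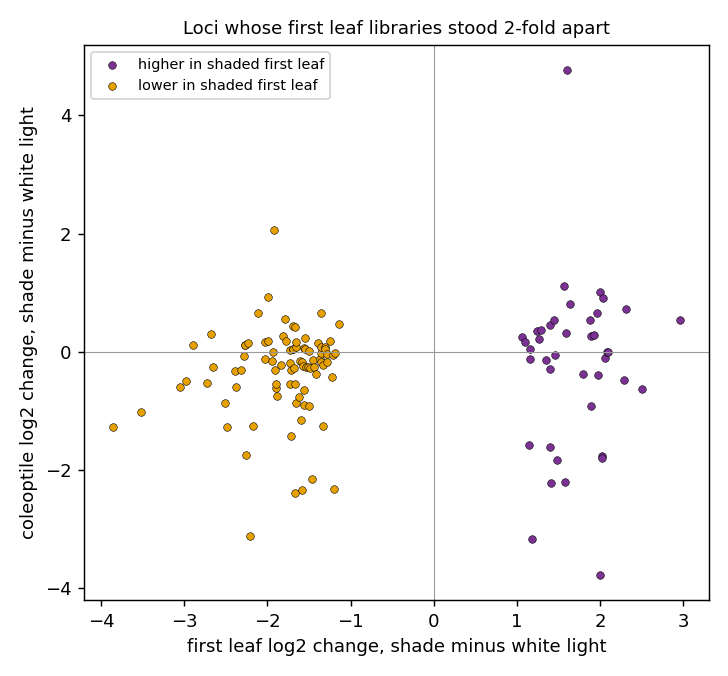
Log2 change of each of the 130 loci separated in the first leaf (horizontal axis, shade minus white light) against its log2 change in the coleoptile (vertical axis, shade minus white light); purple points were higher and orange points lower in the shaded first leaf. Orange points lie mostly at or just below 0 on the coleoptile axis (median -0.18), while purple points spread on both sides of 0 (median 0).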

How the data were processed

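The deposited table holds FPKM values made by the authors, 1 column a library and 55801 locus identifiers with a text annotation. Per the labels, reads were 150 bp and paired. According to the submitters' processing notes the tools included TopHat2 2.0.14 with Bowtie2 2.2.3, Cuffnorm, Cuffdiff and Cufflinks 2.2.1, FastQC 0.11.2, Trim Galore 0.3.7 and bcl2fastq 2.16.0.10. The genome build is not given in the sources used here. Annotation text of the table served as gene names, and no sequence or coordinate was used. Total fragment numbers are unknown. A value of exactly 0 may be an estimate that failed, since 3 loci whose median reached 10 FPKM had such a 0 in some library. These were 1 locus in white light replicate 1, 2 in white light replicate 2 and 0 in either shade library. Of the 41 loci separated and higher in shade, 10 were at 0 in at least 1 white light library. Of the 89 lower ones, 6 were at 0 in at least 1 shade library.

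Values of the 4 first leaf libraries were tested with limma 3.58.1 under R 4.3.3, as log2(FPKM + 1) (empirical Bayes with an intensity trend, two-sided, Benjamini-Hochberg adjustment over 20650 loci). This scale understates changes of low loci. The fit had 2 residual and 3.957 prior degrees of freedom, and it was tested on simulated data. The difference between tissues used all 8 libraries, with 4 residual and 3.263 prior degrees of freedom. Errors of log2 changes are limma's SE. Fold differences are ratios of mean FPKM. Gene lists are annotation keywords or locus identifiers, described by counts and medians.

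The rule for named genes took every called locus, the 12 highest and 12 lowest log2 changes among annotated separated loci, up to 3 separated members a list (or the 2 with the smallest p), the light receptors and early light-induced genes, and loci at 3 FPKM or more in both libraries of one light and 0 in the other. Genes outside the rule, and some keyword corrections, were picked once values had been seen. The members and lists were chosen with earlier results of these data known. Alternatives were pseudocounts, filters, scalings, a replicate block and each library left out.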

Additional observations from a re-analysis of the deposited data

Results flagged for a closer look

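Of 119 loci that the rule for named genes takes, 14 are given here: both shade libraries lay on one side of both white light libraries in the first leaf and on the opposite side in the coleoptile. Of all loci tested, 21.5% were higher and 18.3% lower without overlap in the first leaf, and 17.3% and 15% in the coleoptile. The share of all loci with opposite sides in the tissues was not counted, so nothing is read from the number 14. Of the 14, 7 were separated in the first leaf, and the difference between tissues passed limma's test at 1.

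For the aldehyde dehydrogenase LOC_Os02g49720 the first leaf change minus the coleoptile change was 2.82 ± 0.26 (SE, limma adjusted p = 0.0480). It was higher in both shade libraries in the first leaf and lower in both in the coleoptile.

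For the other 13 the difference between tissues was tested with the same model and did not pass. In the coleoptile, log2 changes, shade minus white light, were -2.21 for the universal stress protein LOC_Os03g19270, -1.76 for the universal stress protein LOC_Os05g28740 and -1.81 for the cytochrome P450 LOC_Os07g04410. They were -1.59 for the AP2 domain locus LOC_Os09g39850 and -0.37 for the stem-specific protein locus LOC_Os04g58280. These 5 were separated and higher in the shaded first leaf. The aminocyclopropane carboxylate oxidase LOC_Os01g39860, at -0.56, and the xyloglucan fucosyltransferase LOC_Os02g17534, at -0.78, were also higher in the shaded first leaf, by less.

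The remaining 6 were lower in the shaded first leaf. In the coleoptile the log2 change was 0.66 for the Bet v I locus LOC_Os12g36880, which was separated in the first leaf, and 0.93 for the pectinesterase inhibitor locus LOC_Os02g33380. It was 0.21 for LOC_Os07g49460 and 0.27 for LOC_Os03g17570, both with a response regulator receiver domain. It was 0.30 for phytochrome-interacting factor 4 LOC_Os03g56950 and 0.52 for the helix-loop-helix locus LOC_Os12g41650. Adjusted p-values of the difference were 0.0656 for LOC_Os07g04410, 0.103 for LOC_Os04g58280 and 0.170 to 0.914 for the rest of the 13. At LOC_Os09g39850 coleoptile white light replicate 1 stood alone, with 0.469 and 0.178 FPKM in shaded coleoptiles, against 9.11 and 0.544 FPKM in coleoptiles in white light. No group had enough libraries for a test of a single outlying library.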

How the results depend on the processing

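The number of loci that fell was 7 as reported, 5 to 8 with a pseudocount of 0.1, equal medians, quantile normalization, no intensity trend or robust moderation, and 14 with a mean of at least 5 FPKM. It was 2 with a replicate block, and 0 with no filter, with a filter on the mean of 8 libraries (chosen after seeing the data) and with the spread shared by 8 libraries. Leaving out 1 library gave 0 to 31 lower and 0 to 30 higher calls. Higher calls numbered 3 with the stricter filter and 1 with robust moderation. Of the 7 loci, 6 were called again with the stricter filter, and all 7 kept negative log2 changes under each alternative. Unadjusted p under 0.05 was met by 2050 loci, by 1203 with shared spread and by 1297 to 2596 with 1 library left out. Separated loci numbered 88 higher and 136 lower with a pseudocount of 0.1, where low loci spread more, and 21 higher with the stricter filter. With 1 library left out, which eases the rule, they were 120 to 172 higher and 172 to 255 lower.

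The difference between tissues had 4 calls, and 0 with a pseudocount of 0.1 or with a replicate block. With 1 library left out it had 0 to 903. The causes of these shifts were not tested. In the first leaf, the replicate difference in shade correlated with that in white light at r = 0.0864 over 20650 loci. That single comparison cannot decide whether same-numbered libraries were paired. As the labels do not pair them, a number is taken as a name only. Of 503 list medians under the alternatives, 440 moved by no more than the spread between replicates of the same list. A list whose replicates differ thus has a wide limit, so this count does not show that medians were stable. Core histones counted as within their limit at -1.02 without shade replicate 1 and at -0.05 without shade replicate 2. Depth is unknown, which leaves loci of a few FPKM least certain.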

Other observations

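Other loci that were lower in shade are named here after their values were seen, and 0 of those in this paragraph and the next passed limma's adjusted test. The omega-3 fatty acid desaturase LOC_Os03g18070, which makes the polyunsaturated lipids of thylakoids, was at 53.3 and 74.1 FPKM in shade, against 177 and 173 FPKM in white light. Digalactosyldiacylglycerol synthase LOC_Os02g33580, which makes a galactolipid of the same membranes, was at 9.54 and 11.2 FPKM in shade, against 30.1 and 29.5 FPKM in white light. The fibrillin LOC_Os11g38260, of a family of plastid lipid-body proteins, was at 39.0 and 43.3 FPKM in shade, against 101 and 88.1 FPKM in white light. At these loci both shade libraries lay below both white light libraries, by more than 2-fold on the log2(FPKM + 1) scale.

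Of 180 RNA recognition motif and splicing loci, 4 were separated and lower (2.22%, against 0.431% of all loci). This list was made after the values were seen, so nothing is read from its share. The splicing factor U2AF locus LOC_Os09g31482 was at 12.5 and 14.5 FPKM in shade, against 43.8 and 47.4 FPKM in white light (log2 change -1.69 ± 0.16, limma adjusted p = 0.0616). The RNA recognition motif locus LOC_Os03g15890 was at 12.1 and 11.6 FPKM in shade, against 36.6 and 37.6 FPKM in white light (log2 change -1.56 ± 0.15, limma adjusted p = 0.0616). Of 16 loci annotated as regulator of chromosome condensation, a list also made after the values were seen, 2 were separated and lower (12.5%).

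Some separated loci sat beside each other in the table's order. Of 6 such pairs at most 3 loci apart, 5 had both members lower in shade, among them the early light-induced pair LOC_Os07g08150 and LOC_Os07g08160, a chitinase with a hevein (LOC_Os04g41620 and LOC_Os04g41640) and the beta-expansin pair LOC_Os09g29690 and LOC_Os09g29710.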
